A study of Mus musculus with 6 samples.

Results

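The 9 genes described here were Pax7, Pax3, Myf5, Myod1, Myog, Myf6, Mef2a, Mef2c and Mef2d, the paired-box, myogenic regulatory and MEF2 transcription factors of the muscle lineage. They were taken by gene symbol from a count table of 55494 rows, and each of the 9 had 1 row. The table covers 6 RNA sequencing libraries of primary muscle stem cells (MuSCs) from wild-type mice, cultured for 2 days either without (control, 3 libraries) or with 11,12-EET (EET, 3 libraries). 11,12-EET is 11,12-epoxyeicosatrienoic acid, a lipid mediator formed from arachidonic acid by cytochrome P450 epoxygenases. The sources used here give neither its dose, nor the control medium, nor the age of the mice. They also do not say whether libraries of a group came from separate mice or cultures, so every p-value refers to the spread among these libraries, which could be technical.

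Pax7 marks satellite cells, the stem cells of adult muscle, and Pax3 is its close relative, best known from muscle progenitors of the embryo. Myf5 and MyoD (Myod1) commit cells to the muscle lineage, whereas myogenin (Myog) and MRF4 (Myf6) act mainly when myoblasts differentiate. These 4 basic helix-loop-helix proteins bind E boxes as dimers with E proteins, and MEF2 proteins bind A/T-rich sites near many of the same genes. In cultured satellite cells, activation is known to raise MyoD, and Pax7 is known to decline as cells differentiate.

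Libraries held 30371291 to 37243882 counts, and the totals did not separate the groups (exact two-sided permutation test, p = 0.8, where 0.1 is the smallest p that 3 against 3 allows). Levels are given as TMM-scaled CPM, with the SD over 3 libraries, and differences as log2 fold changes of EET against control with the SE of an edgeR quasi-likelihood fit over 16097 genes. A gene was called at a Benjamini-Hochberg adjusted p under 0.05, and "rose" and "fell" are used of called genes. The log2 fold change depended on mRNA length across all genes, so a second fit, from which the dependence of each library on mRNA length and GC content was removed ("trend removed"), is given beside the fit on the counts as deposited. In the second fit the median protein-coding gene is set to 0 in each library. In bulk RNA, fewer cells of a type and less RNA per cell cannot be told apart. Markers of muscle stem cells and myoblasts were abundant. Over 10 genes they summed to 3483 to 3773 CPM in controls and 3961 to 4034 CPM with EET. These 10 include Pax7, Myf5 and Myod1, so their sum is not independent of the factors described here. Of the 10, 4 rose and 2 fell as counted, and 1 rose and 1 fell with the trend removed. In comparison, 9 endothelial markers summed to 300 to 311 CPM in controls and 183 to 200 CPM with EET. Of those 9 endothelial markers, 6 fell and 1 rose as counted, and 7 fell and 0 rose with the trend removed (median -0.50). Summed Schwann cell markers went from 382 to 385 CPM in controls to 292 to 314 CPM with EET (4 of 6 fell in each fit, and 1 rose as counted), and pericyte and smooth muscle markers from 90.4 to 108 CPM to 58.6 to 64.6 CPM (4 of 6 fell and 1 rose as counted, and 2 fell with the trend removed). Fibro-adipogenic markers summed to 372 to 376 CPM in controls and 340 to 354 CPM with EET. Of 9, 2 fell as counted and 3 with the trend removed, and 0 rose. Macrophage and leukocyte markers overlapped, at 314 to 343 CPM and 203 to 390 CPM. Of 9, 2 fell as counted, and 5 fell and 1 rose with the trend removed. Erythroid markers overlapped, and none was called. Among all genes tested, 24.6% rose and 23.3% fell as counted, and 15.9% rose and 16.7% fell with the trend removed. The part of these markers in the results below was not tested.

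Related members of a family can share sequence, so the longest identical stretch common to the longest mRNAs of each of the 36 pairs of factors was found. The longest was 28 bases, which is shorter than the reads of 150 bases. For each family the longest such stretch is shown, which belongs to the pair of members named beside it. Similarity over the rest of the coding sequence was not measured. Each lies in the coding sequence of both genes.
Pax7 and Pax3: ctggaagtgtccacccctcttggcca
Myf5 and Myod1: cgcaaggccgccaccatgcgcgagcg
Mef2c and Mef2d: tgctcaagtacaccgagtacaacgagcc
On the opposite strand, exons of Lysmd4 overlapped Mef2a by 302 bp and exons of 1700113A16Rik overlapped Mef2d by 531 bp. No source used here states whether counting used strand, so reads there cannot be assigned to a strand. Both partners were low: Lysmd4 had mean levels of 4.79 (control) and 4.33 CPM (EET), and 1700113A16Rik 0.230 and 0.331 CPM.

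Of the 9 factors, 3 rose with EET (Myf5, Myod1 and Myog), 4 fell (Pax7, Mef2a, Mef2c and Mef2d) and 2 were not called (Pax3 and Myf6). All 9 passed the filter on low counts. Among all genes tested, 24.6% rose and 23.3% fell, so 47.9% were called in either direction. The groups did not overlap in CPM for 8 of the 9 factors, 3 higher and 5 lower with EET, against 57.7% of all genes tested (29.6% higher and 28.0% lower). After the length and GC trend was removed, 0 of the 9 rose and 1 fell (Myod1), against 15.9% and 16.7% of all genes, or 32.6% in either direction.

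**Figure D1:**
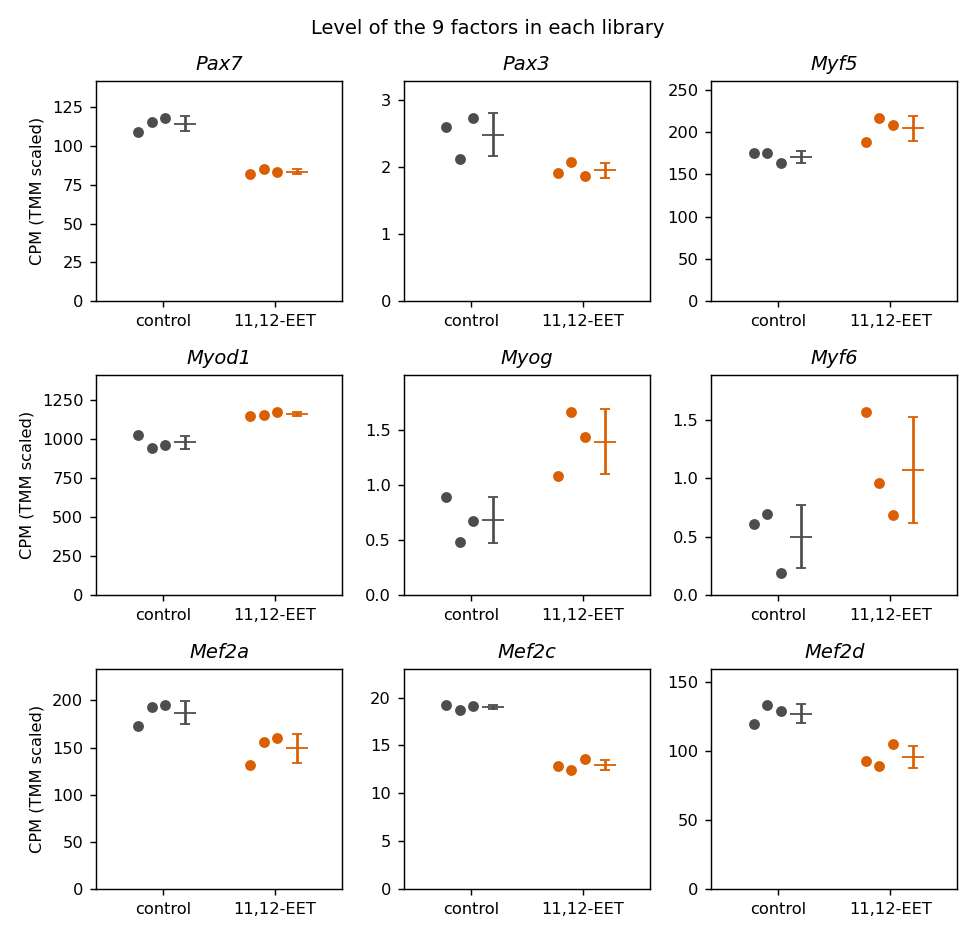
CPM of the 9 factors (vertical axes from 0, a separate scale for each gene) in 3 control and 3 EET libraries, with points for libraries and bars for the mean ± SD. Pax7, Mef2a, Mef2c and Mef2d lie lower with EET, Myf5, Myod1 and Myog lie higher, and the groups of Myf6 overlap.

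Pax7 lies on chromosome 4 at 139737062 to 139833528 (GRCm38, minus strand), and its longest mRNA has 5854 bp. It measured 109, 116 and 118 CPM in the control libraries and 81.9, 85.2 and 83.2 CPM with EET. Every EET library was below every control, by more than the spread within either group. Pax7 fell from 114 ± 4.71 to 83.5 ± 1.64 CPM (n = 3 each), which is 73.1% of the control level, with a log2 fold change of -0.45 ± 0.067 and an adjusted p of 6.34e-05 (edgeR). The trend for genes of its length and GC content was -0.42 on the log2 scale. Its log2 fold change after trend removal was -0.03 ± 0.052 with an adjusted p of 0.694, and the call was lost.

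Pax3 lies on chromosome 1 at 78101267 to 78197134 (minus strand), with a longest mRNA of 3863 bp. It was scarce, with 60 to 99 counts in a library. It measured 2.60, 2.12 and 2.73 CPM in controls and 1.91, 2.08 and 1.86 CPM with EET. The groups did not overlap, but they lay close together, and the log2 fold change of -0.35 ± 0.23 had an adjusted p of 0.23 (edgeR). After trend removal it was -0.18 ± 0.24 (adjusted p = 0.606). Per length, Pax7 made up 96.8% of the sum of both Pax factors in controls and 96.6% with EET. Of the 8 other Pax and Mef2 paralogs listed, only Pax5 and Pax9 passed the filter, and neither was called in either fit.

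Myf5 and Myf6 are neighbours on chromosome 10, at 107482908 to 107486134 and 107492853 to 107494737, both on the minus strand. Myf5 measured 175, 175 and 163 CPM in controls and 188, 217 and 208 CPM with EET. Each EET library lay above each control, though EET library 1 came within the SD of the EET group of the highest controls. Myf5 rose from 171 ± 7.08 to 204 ± 14.8 CPM (n = 3 each), a log2 fold change of 0.26 ± 0.071 with an adjusted p of 0.0078 (edgeR). Its mRNA has 2083 bp, and the trend for such genes was 0.28 on the log2 scale. Without that trend the log2 fold change was -0.03 ± 0.050 with an adjusted p of 0.705. The call also rested on single libraries, since without control library 3 the adjusted p was 0.0561 and without EET library 2 it was 0.0564.

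Myod1, on chromosome 7 at 46376474 to 46379099 (plus strand), was the most abundant of the 9 factors. It measured 1025, 944 and 962 CPM in controls and 1148, 1155 and 1175 CPM with EET. The EET libraries lay close together and above all controls. Myod1 rose from 977 ± 42.4 to 1159 ± 13.9 CPM (n = 3 each), with a log2 fold change of 0.25 ± 0.063 and an adjusted p of 0.0047 (edgeR). Its mRNA of 1861 bp placed it among genes whose trend was 0.38 on the log2 scale, which is more than its own difference. Once this was removed Myod1 fell, with a log2 fold change of -0.13 ± 0.045 and an adjusted p of 0.0267. The direction of Myod1 thus depended on whether and how the trend was removed. The fall was lost when the trend was removed on length alone (-0.10, adjusted p = 0.0922), and with median transcript length in the trend Myod1 was at 0.0058 (adjusted p = 0.94).

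Myog, on chromosome 1 at 134289989 to 134292548 (plus strand), has an mRNA of 1495 bp and was read at low depth. Its counts were 34, 18 and 21 in controls and 38, 52 and 46 with EET, which is 0.893, 0.482 and 0.668 CPM against 1.08, 1.66 and 1.43 CPM. The groups did not overlap, but the lowest EET library was close to the highest control. Myog rose from 0.681 ± 0.206 to 1.39 ± 0.292 CPM (n = 3 each), a log2 fold change of 1.02 ± 0.36 with an adjusted p of 0.0278 (edgeR). The trend at its length and GC content was 0.52, and with it removed the log2 fold change was 0.52 ± 0.37 with an adjusted p of 0.299. Leaving out control library 2, control library 3, EET library 2 or EET library 3 also ended the call, with adjusted p of 0.113, 0.068, 0.104 and 0.0512.

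Summed markers of mature muscle fibres were also higher with EET. Over 8 genes they came to 37.8 to 50.6 CPM in controls and 65.6 to 92.8 CPM with EET. The largest part was Acta1 (mean 32.6 CPM in controls and 45.8 CPM with EET). Acta1 was not called with the trend removed (-0.06, adjusted p = 0.576 by edgeR). Myh4 measured 4.53, 19.1 and 4.50 CPM in the EET libraries. Of these 8 genes, 5 rose and 0 fell as counted, and 2 rose with the trend removed. Among all genes tested, 24.6% rose and 23.3% fell as counted, and 15.9% rose with the trend removed. Of those that rose as counted, Mylpf and Pvalb have mRNAs under 1000 bp, where 73.4% of protein-coding genes rose. Tnnt3 and Acta1 have mRNAs of 1000 to 1500 bp, where 70.8% rose. Acta1, Myh4, Mylpf, Pvalb and Tnnt3 are named after their values were seen. None of the 8 was at 0 in all libraries, and their part in the difference of Myog was not tested.

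Myf6 was the least abundant of the 9 in controls, with counts of 23, 26 and 6 there and 55, 30 and 22 with EET. That is 0.604, 0.696 and 0.191 CPM against 1.57, 0.960 and 0.683 CPM. The groups overlapped, because EET library 3 lay below control library 2. The log2 fold change was 1.09 ± 0.48 with an adjusted p of 0.0745 (edgeR), which missed the threshold, and 0.45 ± 0.45 with an adjusted p of 0.484 with the trend removed. Its mRNA has 1263 bp, and the trend for such genes was 0.63.

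The 3 MEF2 factors all fell as counted. Mef2a, on chromosome 7 at 67231163 to 67372858 (minus strand), was the most abundant of them, with 173, 193 and 195 CPM in controls and 132, 155 and 161 CPM with EET. Control library 1 was the lowest control and EET library 1 the lowest of all, and the groups did not overlap. Mef2a fell from 187 ± 12.1 to 149 ± 15.4 CPM (n = 3 each), with a log2 fold change of -0.33 ± 0.082 and an adjusted p of 0.00402 (edgeR). With the trend of -0.34 at its length of 5538 bp and its GC content removed, the log2 fold change was 0.01 ± 0.047 with an adjusted p of 0.844.

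Mef2d, on chromosome 3 at 88142372 to 88172086 (plus strand), measured 119, 133 and 129 CPM in controls and 92.8, 89.0 and 105 CPM with EET. The groups were apart, and EET library 3 was the nearest to the controls. Mef2d fell from 127 ± 7.01 to 95.6 ± 8.28 CPM (n = 3 each), a log2 fold change of -0.41 ± 0.077 with an adjusted p of 0.000446 (edgeR). At its length of 5401 bp the trend was -0.37, and with it removed the log2 fold change was -0.04 ± 0.050 with an adjusted p of 0.575.

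Mef2c, on chromosome 13 at 83504034 to 83667080 (plus strand), was the scarcest MEF2 factor and the one with the longest mRNA, 6277 bp. It measured 19.2, 18.7 and 19.1 CPM in controls and 12.8, 12.5 and 13.5 CPM with EET. Both groups were tight and far apart. Mef2c fell from 19.0 ± 0.246 to 13.0 ± 0.544 CPM (n = 3 each), 68.1% of the control level, with a log2 fold change of -0.55 ± 0.098 and an adjusted p of 0.000274 (edgeR). After removal of a trend of -0.39 the log2 fold change was -0.16 ± 0.096 with an adjusted p of 0.208.

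Mef2c has 27 annotated protein-coding transcripts with a median length of 1060 bp, and which of them the cells used was not measured. With median in place of longest transcript length in the trend, Mef2c (-0.78, adjusted p = 1.3e-05), Mef2d (-0.40, adjusted p = 0.0003), Mef2a (-0.26, adjusted p = 0.0031) and Pax7 (-0.23, adjusted p = 0.004) fell and Myf5 rose (0.23, adjusted p = 0.0034). Among all genes 19.4% rose and 19.6% fell in that fit, 39.0% together. Myod1, called lower with the longest transcript length, was not called there. The trend-removed calls of these 6 genes therefore depended on the transcript lengths used for the smooth over all genes. Myf5 and Myod1 have 1 coding transcript each, so for them only the lengths given to other genes changed.

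**Figure D2:**
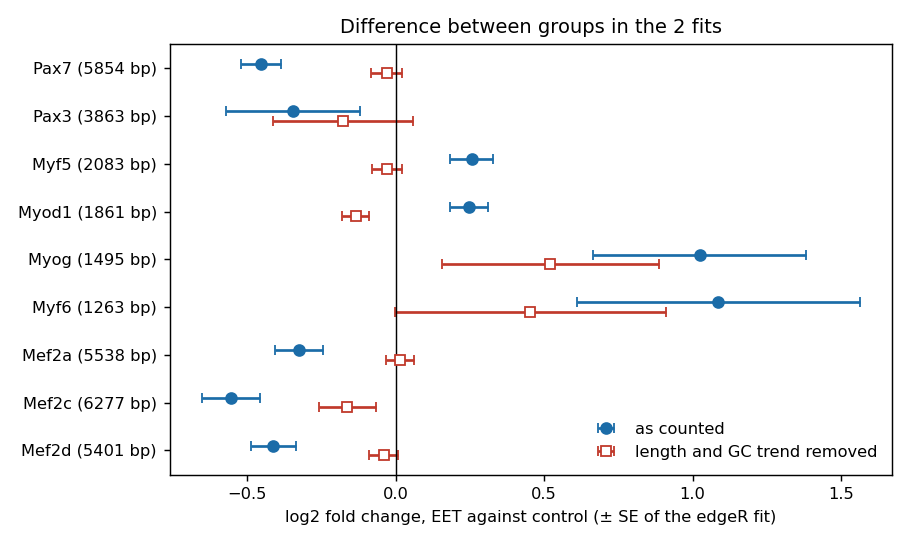
Log2 fold change of EET against control (horizontal axis, ± SE of the edgeR fit, 3 libraries a group) for each factor, as counted (filled circles) and after trend removal (open squares), with the longest mRNA length beside each name. As counted the 4 factors over 5000 bp lie below 0 and the 4 under 2500 bp above it; with the trend removed all but Myog, Myf6, Mef2c, Pax3 and Myod1 lie within 0.05 of 0.

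The direction of the 9 factors followed the length of their longest annotated mRNA. The 4 with longest mRNAs under 3000 bp (Myf5, Myod1, Myog, Myf6) had positive log2 fold changes, and the 5 over 3000 bp had negative ones. By median coding transcript length this split did not hold. Mef2c (1060 bp), Mef2a (2570 bp) and Mef2d (2639.5 bp) then also lay under 3000 bp. The bins below use the longest mRNA. Among 1161 protein-coding genes of 1000 to 1500 bp, which include Myog and Myf6, 70.8% rose and the median log2 fold change was 0.65. The 1482 genes of 1500 to 2000 bp, with Myod1, had a median of 0.38, and the 1489 of 2000 to 2500 bp, with Myf5, a median of 0.23.

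Longer genes lay on the other side of 0. In the bin of 3500 to 5000 bp, with Pax3, the median was -0.19 over 3052 genes. Between 5000 and 6500 bp, where Pax7 and the 3 MEF2 factors lie, 61.0% of 1450 genes fell and the median was -0.40. Pax7, Mef2a, Mef2c and Mef2d, at -0.45, -0.33, -0.55 and -0.41, were thus between the quartiles of that bin, -0.57 and -0.17. For each library, the log2 deviation from the mean of all libraries was set against length. Its slope with each doubling of length was 0.12, 0.24 and 0.24 in the controls and -0.27, -0.21 and -0.11 with EET. The signs are thus relative to that mean, and the libraries also differed within a group. What gave rise to the trend was not tested.

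**Figure D3:**
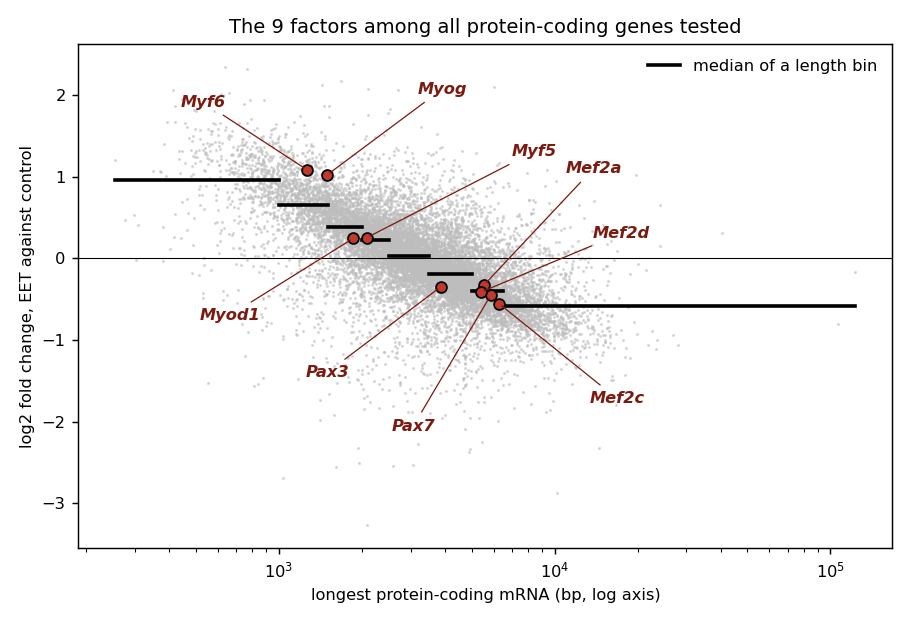
Log2 fold change of EET against control (vertical axis) against the length of the longest protein-coding mRNA (horizontal log axis, bp) for protein-coding genes tested (grey points), with the median of each length bin (black lines) and the 9 factors (red). The medians run from 0.97 below 1000 bp to -0.58 above 6500 bp, and each factor lies on the side of 0 of its own bin.

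Ratios between 2 factors within a library show their relative level without any scaling between libraries. MyoD and Myf5, the pair of determination factors, kept close to 1 ratio: Myod1 had 5.84, 5.39 and 5.90 times the counts of Myf5 in controls and 6.11, 5.32 and 5.65 times with EET. The groups overlapped, at 5.71 ± 0.278 and 5.69 ± 0.394 (n = 3 each). Pax7 and Mef2d, which are alike in length and GC content (55.3% and 55.0%), had ratios of 0.899 ± 0.0260 in controls and 0.878 ± 0.0818 with EET, also overlapping.

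The ratio of Pax7 to Myod1 was below the control range in every EET library, at 0.117 ± 0.00939 in controls and 0.0720 ± 0.00157 with EET, a log2 difference of -0.70. Pax7 to Myf5 went from 0.669 to 0.410. Both pairs join a long and a short mRNA. Among the MEF2 factors, Mef2c to Mef2a and Mef2d to Mef2a overlapped between the groups. Mef2c to Mef2d was 0.150 in controls and 0.136 with EET, without overlap. The groups nearly met there, at 0.141 for the lowest control and 0.140 for the highest EET library. These 7 ratios are given as descriptions and were not tested.

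**Figure D4:**
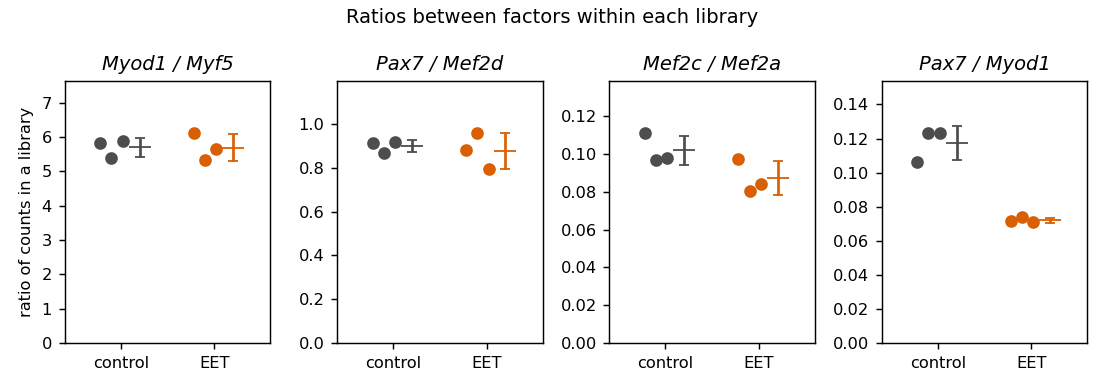
Ratio of counts of 2 factors in the same library (vertical axes from 0) for 3 control and 3 EET libraries, with points for libraries and bars for the mean ± SD. Myod1 to Myf5, Pax7 to Mef2d and Mef2c to Mef2a overlap between the groups, and Pax7 to Myod1 is lower in every EET library.

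Per kilobase of longest mRNA, the order of the levels in controls was Myod1 (525 ± 22.8 CPM per kb), Myf5 (82.2), Mef2a (33.7), Mef2d (23.5), Pax7 (19.5), Mef2c (3.03), Pax3 (0.643), Myog (0.456) and Myf6 (0.394). Neighbours from Myod1 to Pax3 did not overlap over the 3 control libraries, whereas Pax3 and Myog overlapped, as did Myog and Myf6. With EET the first 6 kept that order. Myog (0.931) and Myf6 (0.848) then lay above Pax3 (0.505), and Myog and Myf6 overlapped each other. The lowest Myf6 library (0.541) and the highest Pax3 library (0.538) nearly met, and neither gene was called. These scarce genes differ in mRNA length, the levels are as counted with no trend removed, and the order was not tested. Myod1 supplied 86.3 ± 0.593% of the summed level per kb of the 4 myogenic regulatory factors in controls and 86.2 ± 0.796% with EET, and Myog 0.0745% and 0.129%. Mef2c was 5.03 ± 0.340% of the 3 MEF2 factors in controls and 4.43 ± 0.281% with EET.

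Promoter windows (250 bases before to 50 after a RefSeq start, GRCm38.p6) were listed for Pax7, Myf5, Myog, Mef2a, Mef2c and Mef2d. They were searched on both strands for the E box CANNTG, which 72.31% of all 32851 windows hold, its MyoD-preferred form CAGCTG (16.3%), the MEF2 site (3.19%), and a relaxed MEF2 site with any last base (7.66%), which includes every MEF2 site. Myog is shown because its window holds sites of both factor families: E boxes start 138 and 12 bases before the start and a relaxed MEF2 site 64 bases before it, all in capitals. The window is chr1:134289754-134290053 on the plus strand.
Myog promoter: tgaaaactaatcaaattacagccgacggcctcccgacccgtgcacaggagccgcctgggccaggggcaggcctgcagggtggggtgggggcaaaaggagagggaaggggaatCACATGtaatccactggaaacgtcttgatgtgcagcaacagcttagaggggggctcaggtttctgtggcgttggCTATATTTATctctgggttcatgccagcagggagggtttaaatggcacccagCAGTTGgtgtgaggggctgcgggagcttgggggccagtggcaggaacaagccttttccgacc
Of the 3 Mef2c windows, 1 also held both kinds, with E boxes starting 234 and 100 bases before the start and a relaxed MEF2 site 146 bases before it. The Mef2a window held a MEF2 site whose first base lies 2 bases before the start and which runs across it. The windows of Pax7, Myf5 and Mef2d held none of these letters. Myog, Mef2c and Mef2a thus held matches but differed in direction as counted.

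The partners, regulators and targets of the factors were read from lists of genes. The counts of each list below stand beside the shares over all genes tested. Of all genes, 24.6% rose and 23.3% fell as counted (median 0.005), and 15.9% rose and 16.7% fell with the trend removed (median -0.026). Of the 3 E proteins, the dimer partners of the myogenic regulatory factors, 1 rose and 2 fell as counted, and none was called with the trend removed. Tcf4 fell from 153 ± 3.36 to 105 ± 7.60 CPM (log2 fold change -0.54, adjusted p = 2.28e-05 by edgeR). Tcf12 fell from 220 ± 20.1 to 152 ± 13.1 CPM (-0.54, adjusted p = 8.3e-05), and Tcf3 rose from 142 ± 1.91 to 159 ± 0.573 CPM (0.16, adjusted p = 0.0472). The call of Tcf3 lay near the threshold and was lost under RLE or library-total scaling, without the filter, without robust estimation, in DESeq2 and when any library but EET library 3 was left out. With the trend removed the log2 fold changes of Tcf4, Tcf12 and Tcf3 were -0.01, -0.10 and 0.08.

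The Id proteins bind E proteins without binding DNA and so keep them from the myogenic factors. Of 17 inhibitors of myogenic factors, 8 rose and 3 fell as counted (median 0.20, against 0.005 over all genes tested), and 4 rose and 5 fell with the trend removed (median 0.0054, against -0.026 over all genes). Without control library 2, 5 rose as counted. Id1, Id2 and Id3 rose in both fits, and Zeb1 (-0.91 and -0.50), Zeb2 (-0.85 and -0.31) and Bhlhe40 (-0.32 and -0.30), repressors named after their values were seen, fell in both. Id2 measured 183, 172 and 173 CPM in controls and 276, 299 and 266 CPM with EET, with no overlap, a log2 fold change of 0.67 (adjusted p = 3.29e-06) as counted and 0.38 (adjusted p = 2.05e-06) with the trend removed. Id1 rose from 175 ± 12.0 to 334 ± 25.9 CPM, by 0.94 as counted and 0.22 with the trend removed (adjusted p = 1.05e-06 and 0.000462). Id3 rose from 251 ± 23.8 to 448 ± 21.1 CPM, by 0.83 and 0.19 (adjusted p = 1.73e-06 and 0.00249). Hes1, a Notch target that represses Myod1, rose by 0.33 as counted (adjusted p = 0.00566) and fell by 0.19 with the trend removed (adjusted p = 0.03).

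Eya cofactors and several homeobox factors act upstream of the myogenic genes. Of 16 such genes, 5 rose and 4 fell as counted (median 0.10), and 1 rose and 1 fell with the trend removed (median 0.040). The 5 that rose became 2 without control library 2 and 3 without EET library 2. Dach1, a transcriptional corepressor, fell in both fits, from 6.20 ± 0.373 to 2.94 ± 0.936 CPM, with a log2 fold change of -1.08 (adjusted p = 0.000596) as counted and -0.75 (adjusted p = 0.00597) with the trend removed. Pitx3 rose from 24.5 ± 2.32 to 40.5 ± 1.24 CPM (0.73, adjusted p = 1.59e-05) and Eya3 fell from 84.8 ± 3.25 to 68.9 ± 2.30 CPM (-0.30, adjusted p = 0.00242). After trend removal Pitx3 was at 0.01 and Eya3 at 0.07, and neither was called.

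Pax7 recruits histone H3 lysine methyltransferases of the Kmt2 family to Myf5. Of 10 genes listed for this recruitment, not taken as 1 complex, 1 rose and 6 fell as counted (median -0.38). With the trend removed 2 rose and 4 fell (median -0.0043). Kmt2a, a methyltransferase of that family with an mRNA of 16470 bp, fell from 131 ± 22.7 to 61.3 ± 8.04 CPM. Its log2 fold change was -1.10 as counted and -0.24 with the trend removed (adjusted p = 1.95e-05 and 0.00194 by edgeR). Kmt2c, another methyltransferase of that family, fell from 41.1 ± 6.57 to 19.7 ± 2.00 CPM (-1.06 and -0.26, adjusted p = 7.99e-06 and 0.00907). Dpy30, a core subunit of Kmt2 complexes with an mRNA of 789 bp, rose from 21.7 ± 2.12 to 52.7 ± 9.36 CPM (1.28 and 0.33, adjusted p = 2.88e-06 and 0.00178).

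Of 17 coactivators and chromatin partners of MyoD, 2 rose and 8 fell as counted (median -0.17), and 1 rose and 5 fell with the trend removed (median -0.063). The 2 that rose became 1 without control library 2, control library 3, EET library 1 or EET library 2. Ep300, the acetyltransferase p300, measured 89.0, 123 and 121 CPM in controls and 42.7, 52.5 and 56.7 CPM with EET. The groups were far apart, and its log2 fold change was -1.13 (adjusted p = 1.83e-05) as counted and -0.52 (adjusted p = 0.000168) with the trend removed. Smarcc1, a subunit of the SWI/SNF remodeller, fell from 348 ± 26.9 to 223 ± 23.5 CPM (-0.64 and -0.22, adjusted p = 2.07e-05 and 0.0009). Ncoa2, a nuclear receptor coactivator, fell from 48.2 ± 5.32 to 27.7 ± 3.68 CPM (-0.80 and -0.20, adjusted p = 3.16e-05 and 0.0287).

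MEF2 proteins are held inactive by class II histone deacetylases and Cabin1, and calcium/calmodulin kinases relieve that hold. Of 17 such regulators tested (Myocd did not pass the filter), 4 rose and 5 fell as counted (median -0.011), and 3 rose and 1 fell with the trend removed (median 0.079). Without control library 3, 3 fell as counted. Hdac4 fell from 33.4 ± 1.99 to 22.9 ± 1.20 CPM (-0.54, adjusted p = 0.00015) and Cabin1 from 105 ± 8.20 to 75.3 ± 3.84 CPM (-0.48, adjusted p = 0.000129). Camk1 rose from 21.9 ± 0.867 to 35.7 ± 4.46 CPM (0.70, adjusted p = 4.79e-05). None of these 3 was called with the trend removed, at 0.07, 0.08 and 0.18.

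Of 15 targets of the myogenic and MEF2 factors tested (Mymx did not pass the filter), 7 rose and 0 fell as counted, with a median of 0.32. After trend removal 6 rose, all of them among those 7, and 1 fell, with a median of 0.21. Chrna1, the alpha subunit of the muscle acetylcholine receptor, measured 646, 645 and 635 CPM in controls and 794, 761 and 750 CPM with EET. All EET libraries were higher, and its log2 fold change was 0.26 (adjusted p = 0.00266) as counted and 0.51 (adjusted p = 3.66e-07) with the trend removed. Des, which encodes the intermediate filament desmin, rose from 594 ± 56.5 to 864 ± 82.5 CPM (0.54 and 0.53, adjusted p = 9.54e-05 and 0.000176).

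Hes6, a helix-loop-helix gene active in the muscle lineage, rose from 40.1 ± 3.32 to 74.5 ± 6.18 CPM (0.89 and 0.26, adjusted p = 2.72e-06 and 0.00162). The other 3 that rose in both fits are named after their values were seen. They were Myh3, the embryonic myosin heavy chain (0.995 ± 0.107 to 1.92 ± 0.327 CPM), Ckm, muscle creatine kinase (2.28 ± 0.144 to 4.28 ± 1.68 CPM), and Chrng, the fetal acetylcholine receptor subunit (6.81 ± 1.02 to 9.44 ± 0.877 CPM). Myl4 rose as counted (1.00, adjusted p = 0.0033) and was not called with the trend removed (0.14, adjusted p = 0.721), and Tnnc1, cardiac and slow troponin C, fell there (-0.92, adjusted p = 0.0462) and was at 0.13 as counted (adjusted p = 0.747); both are also named after their values were seen. Ckm is also among the mature fibre markers that were higher with EET, and the part of those cells in this list was not tested.

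Of 8 targets of Pax3 and Pax7, which include Myf5, Id2 and Id3 of the groups above, 5 rose and 1 fell as counted (median 0.27). With the trend removed 3 rose and 0 fell (median 0.086): Id2, Id3 and Fgfr4, a fibroblast growth factor receptor named after its values were seen (90.3 ± 3.15 to 111 ± 1.66 CPM, 0.29 and 0.32, adjusted p = 0.00186 and 2.89e-05). Met, the receptor of hepatocyte growth factor, fell from 419 ± 33.8 to 285 ± 30.2 CPM (-0.55, adjusted p = 7.58e-05) and was at -0.07 (adjusted p = 0.256) with the trend removed. Overlap with genes on the opposite strand was looked up for the 9 factors and not for the genes of these lists.

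**Figure D5:**
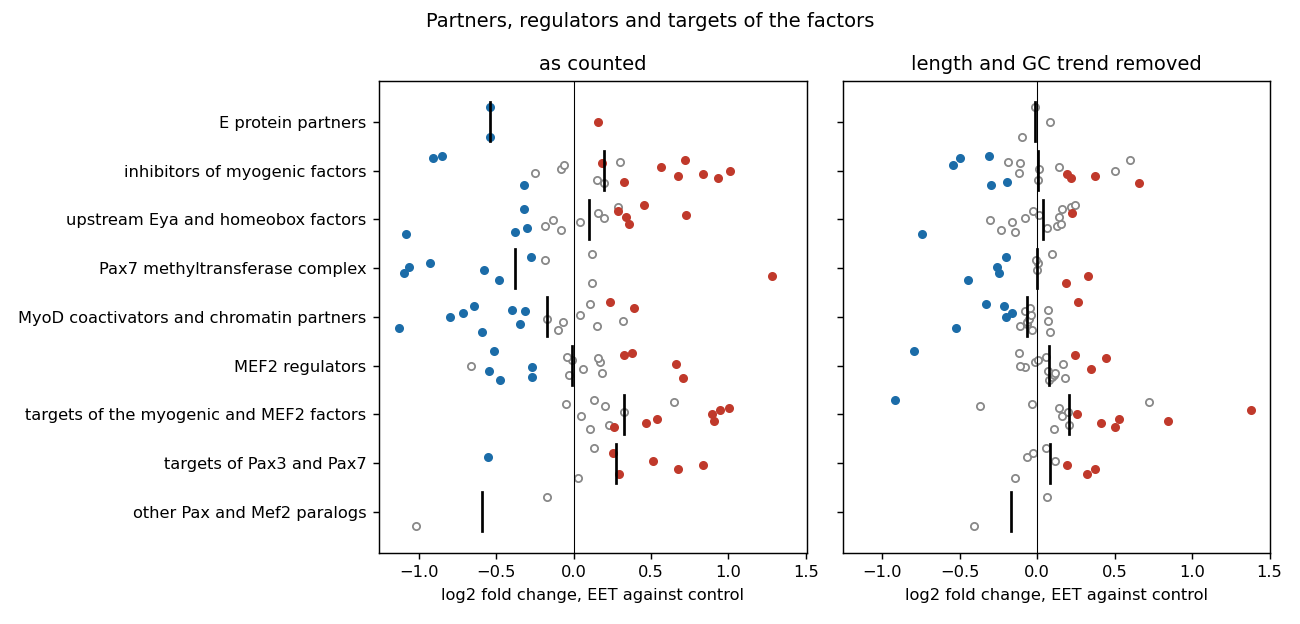
Log2 fold change of EET against control (horizontal axes) of each tested gene in the 9 lists (a point per gene), as counted on the left and after trend removal on the right. Red points rose, blue points fell and open points were not called, and black bars are list medians: the median of the E proteins is -0.54 on the left and -0.01 on the right, and that of the targets of the myogenic and MEF2 factors 0.32 and 0.21.

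The genes whose levels were most like those of a factor over the 6 libraries were found by Pearson's r of log2 CPM among 13492 protein-coding genes, as a description, since the 6 libraries fall into 2 groups. As counted, the 3 most like Pax7 were Zfp646 (r = 0.998), Stat2 and Plekha7, those most like Myod1 were Arf2 (r = 0.999), Pola2 and Cdca4, and those most like Myf5 were Tspan12, Lypla1 and Alkbh1. Mef2a was most like Cggbp1, Lysmd3 and Peli1, Mef2c was like Ddx58 and Ptprm, and Mef2d was most like Adarb1, Zmym2 and Sdc3. The share of genes with an r over 0.95 was 15.0% for Mef2d, 10.6% for Mef2c, 10.3% for Pax7, 7.26% for Myod1, 6.33% for Mef2a and 0.697% for Myf5.

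With the trend removed these shares were 0.133%, 0.245%, 0.141%, 1.4%, 0.126% and 0.111%, in the same order, and all the nearest genes changed. Pax7 was then most like Acaa1a (r = 0.988), Ano3 and Casz1, Myod1 like Chst14 (r = 0.996), Axl and Rreb1, and Myf5 like Agbl5, Tcf24 and Reps2. Mef2a was most like Zbtb4, Nfatc2ip and Ankrd49, Mef2c like Pbp2, Gnl2 and Eif3g, and Mef2d like Stxbp6, Itga1 and Zfp385b.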

How the data were processed

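The authors' deposited table holds whole-number read counts per gene symbol in 6 libraries, not normalized. Poly(A) RNA was fragmented, the second strand was marked with dUTP, and 150-base paired reads were sequenced, per the labels' protocols. The submitters' processing notes name FastQC, cutadapt, DESeq2 and GRCm38. Not given in the sources used here were the aligner, the counter and whether counting used strand. Of 55494 rows, 25226 had no count. Of the counts from 11 to 50, 61.3 to 65.6% were even, so mates may have been counted apart for many genes, and precision is then lower than the totals give.

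The quasi-likelihood test of edgeR 4.0.16 (R 4.3.3; filterByExpr, TMM, robust glmQLFit, glmQLFTest) set 3 EET against 3 control libraries, with no block; 16097 genes passed the filter. Log2 CPM used a prior count of 2. For the second fit, each library's deviation of log2 CPM from the mean of all libraries was smoothed by loess (span 0.3). The smooth was on longest mRNA length and GC content (GENCODE M21, GRCm38) over 13809 protein-coding genes and served as an offset. Of the tested genes, 263 had no annotated length. Alternatives were RLE and library-total scaling, other filters, DESeq2 1.42.0, limma-voom (limma 3.58.1), no robust estimation, counts divided by 2, a replicate block, other trends and leaving out each library. No 2 libraries were alike within sampling noise, at a chi-square of 5.92 or more per gene.

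The factors and lists were chosen with earlier results of these data known. Named were all 9 factors, up to 3 called genes of smallest p in each list, list genes called in opposite directions in both fits, and the 3 genes most like each of 6 factors; others are marked as named after their values were seen. Of the genes this rule takes, 1 is not reported here.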

Additional observations from a re-analysis of the deposited data

How the results depend on the processing

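As counted, 3967 genes rose and 3749 fell, and 53.6% of genes had an unadjusted p under 0.05. Genes that rose numbered 2557 with the length and GC trend removed, 2514 with the trend on length alone and 2349 without recentring (an alternative chosen after seeing the data), where 3011 fell. Of the 9 factors, 3 rose as counted and 0, 0 and 0 under those trends, 1 with median transcript length and 0 with the trend removed together with a replicate block; 4 fell as counted, and 1, 0, 1 and 1 under the trend, length alone, no recentring and the trend with block. Genes of the lists together went from 31 higher to 18, 20, 18 and 19, and from 29 lower to 17, 18, 19 and 18, in that order. Log2 fold changes turned for Myf5 (-0.029, -0.016, -0.049 and -0.030, against 0.26), for Myod1 (-0.13, -0.10, -0.15 and -0.14, against 0.25; with median transcript length it was 0.0058) and for Mef2a (0.015 with the trend removed, 0.050 on length alone and 0.014 with the block, against -0.33). The cause was not tested.

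Leaving out 1 library gave 1 to 3 factors that rose and 4 that fell, 3291 to 4121 genes that rose and 3029 to 3934 that fell, and 23 to 33 and 26 to 31 list genes. Replicate numbers gave no sign of pairing. Deviations of same-numbered libraries correlated at -0.0501 to 0.00893, and not every library was most like its own number. With so few libraries these values cannot show whether the libraries were paired. With the replicate block as counted, 4238 genes rose and 4083 fell, and Myf6 was also called (1.15, adjusted p = 0.033). Myf6 was called too without EET library 3 (1.33, adjusted p = 0.0313). A filter of 5 CPM left out Pax3, Myog and Myf6, whose counts limit their precision.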
